A study of Mus musculus with 16 samples.

Results

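Granins and neuropeptide-processing enzymes, 10 of the 55404 genes in the table, were followed in RNA from the whole brain of mice, Tecpr2 ki/ki or wt/wt. They were the granins Scg2, Vgf, Chga, Chgb and Scg3, the convertase chaperone Scg5, and the processing enzymes Pcsk1, Pcsk2, Cpe and Pam. The Tecpr2 ki/ki mice were homozygous for the knock-in L1152fs, a frameshift in Tecpr2, a gene of the autophagy and endolysosomal system whose mutation in humans causes a hereditary neuropathy. The wt/wt controls carried the unedited gene. All mice were untreated, 5 months old and, per the paper, male, and each of the 8 mice of a genotype gave 1 library of total RNA depleted of ribosomal RNA. The knock-in was present in every cell of the animal, and whole brain pools all regions and cell types, so fewer cells of a type and less RNA per cell cannot be told apart. The members were chosen by role with earlier results of these mice known, and Scg2, Vgf and Cpe had been selected on the difference between the genotypes in the study's own gene lists. Differences between genotypes in the 10 genes are therefore a description with a 95% interval and no p-value, and where calls of the fit over all genes are counted for them, nothing is read from the counts.

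Neurons and endocrine cells pack peptide hormones and neuropeptides into dense-core vesicles, which form at the trans-Golgi network and release their content on stimulation. Granins are acidic proteins that aggregate in these vesicles, help to sort their cargo and are themselves cut into peptides such as secretoneurin from Scg2 and TLQP peptides from Vgf. Inside the vesicle the convertases Pcsk1 and Pcsk2 cut precursors after pairs of basic residues, the carboxypeptidase Cpe trims these residues off, and Pam amidates the new end. Transcription of several of these genes is known to follow neuronal activity through cAMP response elements in their promoters.

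The letters of this element were looked up in the promoters of the members, to show which of them share it. RefSeq promoters of build GRCm38.p6, 300 bases each from 250 before to 50 after the annotated start, were found for 8 of the 10 genes; Vgf and Cpe had no entry. The full palindrome TGACGTCA stood in 3 of the 8, Scg2, Chgb and Pcsk1, against 1.79% of all 32851 promoters. The core TGACGT, searched on both strands and contained in the full element, stood in 5 of the 8, adding Chga and Scg5, against 7.51% of all promoters. Neither stood in the promoters of Scg3, Pcsk2 and Pam, which says only that these letters are not in those windows. Each site before the start is shown in 30 bases on the strand of the gene, with the element or its core in capitals.
Scg2, full element 68 bases before the start, minus strand, chr1:79440076-79440105: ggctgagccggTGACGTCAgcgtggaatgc
Chgb, full element 72 bases before the start, plus strand, chr2:132781559-132781588: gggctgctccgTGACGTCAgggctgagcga
Pcsk1, full element 78 bases before the start, plus strand, chr13:75089768-75089797: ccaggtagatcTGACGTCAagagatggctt
Pcsk1, core 50 bases before the start, plus strand, chr13:75089795-75089824: ctttcgtcgattTGACGTgtaaacactcat
Chga, core 44 bases before the start, plus strand, chr12:102554885-102554914: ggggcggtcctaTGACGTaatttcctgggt
Scg5, core 175 bases before the start, minus strand, chr2:113829249-113829278: aaaggaggtaaaTGACGTtcataggggtcg

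The full elements of Scg2, Chgb and Pcsk1 lay within 10 bases of each other in their distance from the start. In the GENCODE annotation of GRCm38, the sites shown for Pcsk1, Chga and Scg5 lay upstream of every transcript of their gene. Scg5 had a further core 39 bases after the start, which is not shown. The site of Chgb lay in a non-coding stretch of an exon of its 1 transcript, and that of Scg2 in such a stretch in 1 of its 2 transcripts, since GENCODE places these starts farther upstream than RefSeq. A match of letters is a description of the sequence, and binding was not measured in these samples.

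The authors deposited linear normalized values rounded to whole numbers, so that every level below is a normalized value without a unit. Tecpr2, the check of the labels, ranged from 274 to 320 in the Tecpr2 ki/ki group and from 928 to 1002 in the controls, without overlap. The reads on genes behind the values, estimated from gaps left by rounding, lay between 9.23 and 15.39 megareads per mouse. Each library correlated with the mean of the others at r of 0.996 or above, and none stood apart. All 10 members passed the filter on low values (a sum over 16, and above 5 in at least 4 mice of a genotype), as did 23244 genes in all. Most pituitary hormone genes, which would mark carried-over pituitary where granins are very abundant, were at or near 0. Gh, Prl and Lhb were listed at 0 in all 16 mice, and Cga and Fshb had a mean value under 5. Pomc lay between 6 and 19, and Tshb, another hormone gene of the list, passed the filter on low values.

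Set per kilobase of annotated exon, to allow levels of different genes to be compared, Cpe was far above the rest, with 4064 ± 84.5 per kilobase in wt/wt mice (SD, n = 8). Scg2 followed with 782 ± 25.6 and Scg3 with 746 ± 27.9 per kilobase (SD, n = 8), and their ranges over the wt/wt mice overlapped. Scg5 came next with 681 ± 17.1 per kilobase, and below it Chgb with 553 ± 29.7 and Vgf with 539 ± 31.9 overlapped each other. Chga had 417 ± 10.1 and Pcsk2 388 ± 6.63 per kilobase, without overlap in wt/wt mice. Pam with 167 ± 2.33 and Pcsk1 with 105 ± 7.09 per kilobase were the lowest. By mean, the amidating enzyme and the convertase Pcsk1 thus had less RNA per length than the granins, and the exopeptidase Cpe the most. Levels and places between the first and the last gene depended on the length used. Per kilobase of the longest coding transcript, Cpe still led with 5008 ± 104 and Pcsk1 was still last with 116 ± 7.88. Scg5 then stood above Scg3 and Scg2, with overlapping ranges of Scg5 and Scg3. Pcsk2 moved from place 8 to place 5, above Chga without overlap in wt/wt mice. Pam rose to 484 ± 6.77 and kept place 9, with a range that overlapped that of Chgb.

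**Figure D1:**
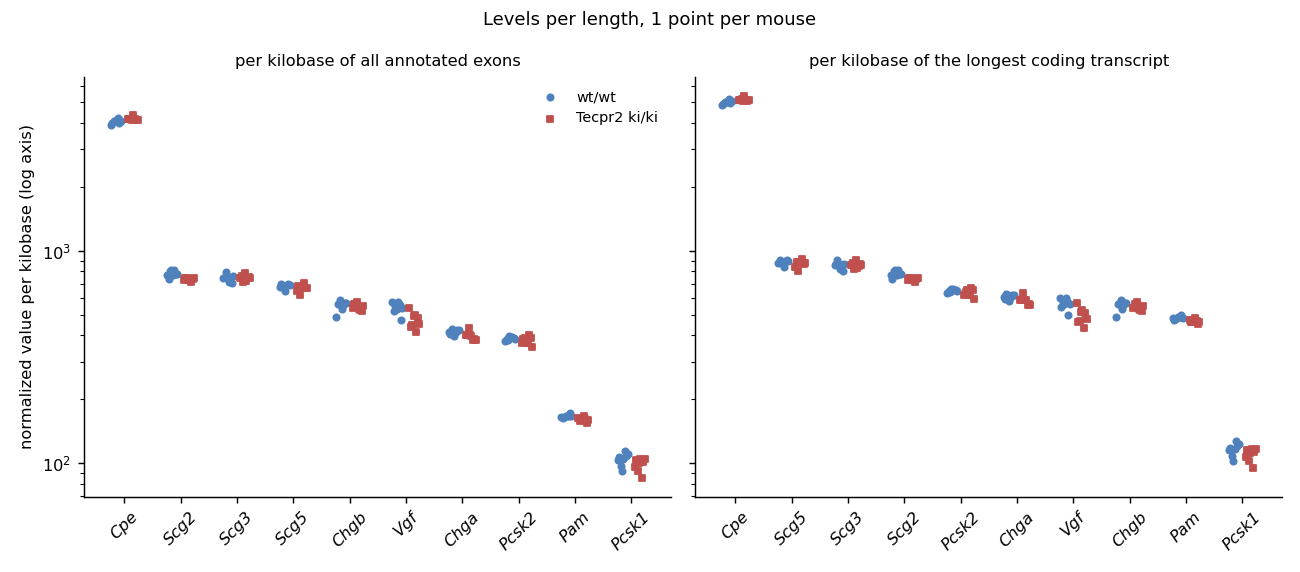
Normalized value per kilobase (log axis) of the 10 genes in each of the 8 wt/wt (blue circles) and 8 Tecpr2 ki/ki mice (red squares), per kilobase of all annotated exons on the left and of the longest coding transcript on the right, with genes ordered by the wt/wt mean. Cpe stands above all other members and Pcsk1 below them in both panels, and the genotypes lie close together for every gene.

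Among the granins, Scg2 (secretogranin II, ENSMUSG00000050711, GRCm38 chromosome 1, 79434669 to 79440120, minus strand) ranged from 1786 to 1882 in the Tecpr2 ki/ki group (median 1844.5). In wt/wt mice it lay between 1860 and 2048 (median 1957). All 8 Tecpr2 ki/ki mice were below the wt/wt median and 5 of them below every wt/wt mouse, while mice 2, 3 and 8 overlapped only with wt/wt mouse 2. The means were 1845 ± 30.7 and 1968 ± 64.5 (SD, n = 8 each), a log2 difference of −0.093 (SE 0.023, 95% interval −0.14 to −0.047) and a change of −6.22%.

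Vgf (ENSMUSG00000037428, chromosome 5, 137026392 to 137033351, plus strand), the precursor of several signalling peptides, ranged from 1231 to 1605 in the Tecpr2 ki/ki group (median 1395.5). The wt/wt mice lay between 1411 and 1702 (median 1612). All 8 Tecpr2 ki/ki mice were again below the wt/wt median and 4 of them, mice 2, 3, 6 and 8, below every wt/wt mouse. The overlap came from wt/wt mouse 7, the lowest control, and from Tecpr2 ki/ki mouse 1, which alone reached the level of the other controls. With means of 1401 ± 120 and 1603 ± 94.9 (SD, n = 8 each), the log2 difference of −0.20 (SE 0.0525, 95% interval −0.31 to −0.085) was the farthest from 0 among the members, a change of −12.7%.

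Chga (chromogranin A, ENSMUSG00000021194, chromosome 12, 102554969 to 102565028, plus strand), a granin of chromaffin granules and neurons, lay between 1045 and 1191 in Tecpr2 ki/ki (median 1104) and between 1099 and 1179 in wt/wt mice (median 1156). The Tecpr2 ki/ki mice spread to both sides, since mice 6, 7 and 8 were below every wt/wt mouse and mouse 3 was above every wt/wt mouse. The log2 difference was −0.069 (SE 0.0281, 95% interval −0.12 to −0.013), and without Tecpr2 ki/ki mouse 3 it was −0.087.

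Chgb (chromogranin B, ENSMUSG00000027350, chromosome 2, 132781278 to 132795079, plus strand) lay between 1432 and 1572 in Tecpr2 ki/ki (median 1488) and between 1340 and 1602 in wt/wt mice (median 1541). Every Tecpr2 ki/ki mouse fell inside the range of the controls, whose lowest value came from mouse 1. The log2 difference was −0.018 (SE 0.0279, 95% interval −0.074 to 0.038). Scg3 (secretogranin III, ENSMUSG00000032181, chromosome 9, 75643189 to 75684056, minus strand), which tethers granin aggregates to the vesicle membrane, lay between 1962 and 2148 in Tecpr2 ki/ki (median 2040.5) and between 1926 and 2170 in wt/wt mice (median 2058.5). Its means of 2043 ± 60.4 and 2044 ± 76.3 (SD, n = 8 each) were nearly equal, and the 95% interval of the log2 difference ran from −0.047 to 0.047.

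**Figure D2:**
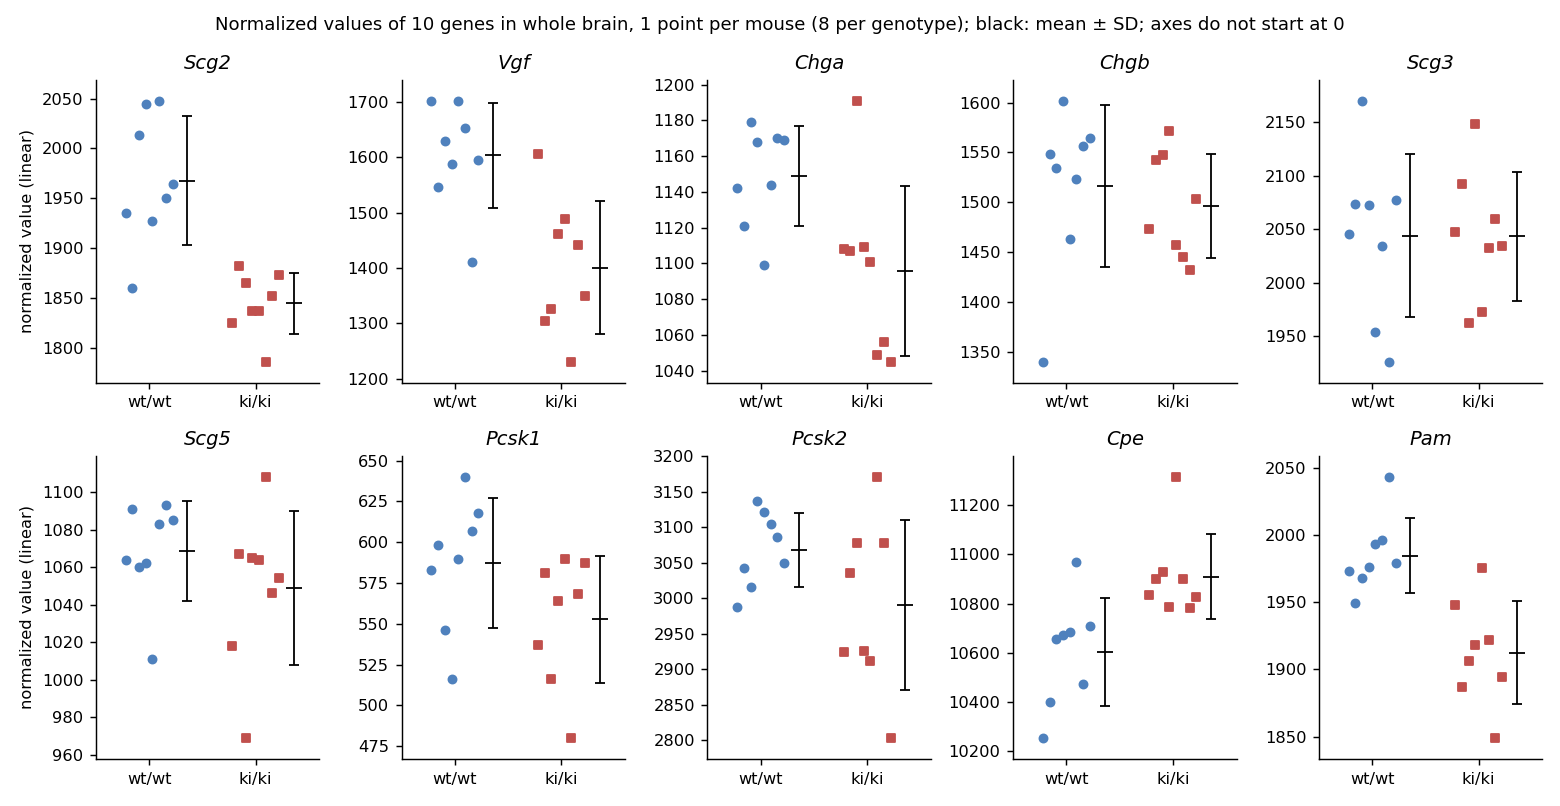
Normalized value (linear axes that do not start at 0) of each of the 10 genes, 1 point per mouse, for 8 wt/wt (blue circles) and 8 Tecpr2 ki/ki mice (red squares), with the mean ± SD in black. The ranges of the genotypes overlap in every panel; for Scg2, Vgf, Pcsk1 and Pam all 8 Tecpr2 ki/ki mice lie below the wt/wt median, and for Cpe all 8 lie above it.

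The convertases cut the precursors. Pcsk1 (PC1/3, ENSMUSG00000021587, chromosome 13, 75089826 to 75134861, plus strand) lay between 480 and 590 in Tecpr2 ki/ki (median 566) and between 516 and 640 in wt/wt mice (median 594). All 8 Tecpr2 ki/ki mice were below the wt/wt median, but only mouse 6 was below every wt/wt mouse. The log2 difference was −0.087 (SE 0.0413, 95% interval −0.17 to −0.0045).

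Pcsk2 (PC2, ENSMUSG00000027419, chromosome 2, 143546156 to 143816285, plus strand), the other convertase of neurons, lay between 2803 and 3171 in Tecpr2 ki/ki (median 2980.5) and between 2988 and 3137 in wt/wt mice (median 3068.5). The Tecpr2 ki/ki mice surrounded the controls, with mice 1, 4, 5 and 8 below every wt/wt mouse and mouse 6 above all of them. The log2 difference of −0.038 (SE 0.0209) had a 95% interval from −0.08 to 0.0041.

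Scg5 (7B2, ENSMUSG00000023236, chromosome 2, 113776362 to 113829121, minus strand) is the chaperone that Pcsk2 needs for its maturation. It lay between 969 and 1108 in Tecpr2 ki/ki (median 1059) and between 1011 and 1093 in wt/wt mice (median 1073.5). Both the lowest value, in mouse 3, and the highest, in mouse 6, were those of Tecpr2 ki/ki mice. Its log2 difference was −0.028 (SE 0.0284, 95% interval −0.084 to 0.029).

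Cpe and Pam finish the peptides. Cpe (carboxypeptidase E, ENSMUSG00000037852, chromosome 8, 64592542 to 64693054, minus strand) lay between 10781 and 11315 in Tecpr2 ki/ki (median 10866.5) and between 10253 and 10968 in wt/wt mice (median 10665). All 8 Tecpr2 ki/ki mice were above the wt/wt median, and mouse 5 was above every wt/wt mouse. Cpe was the 1 member with a higher level in Tecpr2 ki/ki mice, with a log2 difference of 0.041 (SE 0.0137, 95% interval 0.014 to 0.069), or 2.9%, and of 0.034 without Tecpr2 ki/ki mouse 5.

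Cpe is known to be made by astrocytes as well as by neurons. Of 12 astrocyte markers, 10 were higher by sign, where 50.5% of all tested genes were lower. At the adjusted threshold of 0.1 with limma 3 rose, where 0.0946% of all tested genes did. The 3 were the intermediate filament gene Gfap, the water channel gene Aqp4 and the glutamate transporter gene Slc1a2. The summed level of the 12 lay between 84992 and 88083 in Tecpr2 ki/ki and between 81277 and 86124 in wt/wt mice. Much of this sum was Slc1a2, with means of 45610 in Tecpr2 ki/ki and 43650 in wt/wt mice. Of 16 pan-neuronal markers, 13 were lower by sign and 0 passed. Among tested genes with a mean value of at least 500, 60.3% were lower by sign. At an unadjusted p under 0.05 with limma 3 markers were lower and 0 higher, against 3.01% and 3.07% of all tested genes. The sum of the 16 lay between 81270 and 84563 in Tecpr2 ki/ki and between 81506 and 86845 in wt/wt mice. No marker of either list was at 0. The part of cell composition in the difference of Cpe or of the granins was not tested.

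Pam (peptidylglycine alpha-amidating monooxygenase, ENSMUSG00000026335, chromosome 1, 97795114 to 98095646, minus strand) lay between 1849 and 1975 in Tecpr2 ki/ki (median 1912) and between 1949 and 2043 in wt/wt mice (median 1977.5). Of the Tecpr2 ki/ki mice 7 were below every wt/wt mouse, and mouse 5 alone overlapped with the controls. The log2 difference was small, −0.054 (SE 0.0219, 95% interval −0.097 to −0.0099) and a change of −3.65%.

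In all, 9 of the 10 members had a lower level in Tecpr2 ki/ki mice by sign, where 50.5% of all tested genes did. The median log2 difference of the members was −0.046, and that of all tested genes was −0.00098. Because abundant genes vary less, the members were also set beside the 4892 tested genes with a mean value of at least 500, of which 60.3% were lower by sign. Their log2 differences had a median of −0.0081, a 5th percentile of −0.062 and a 95th percentile of 0.049. Scg2, Vgf, Chga and Pcsk1 lay below that 5th percentile, and the other members lay between both percentiles. With limma 0 of the 10 passed the adjusted p of 0.1, a threshold passed by 0.133% of all tested genes. At an unadjusted p under 0.05 there were 5 lower and 1 higher, against 6.08% of all tested genes, 3.01% lower and 3.07% higher. In 0 of the 10 the ranges of the genotypes stayed apart, as they did in 0.086% of all tested genes. Scg2 counted as called without Tecpr2 ki/ki mouse 3 or without wt/wt mouse 2, and Vgf without Tecpr2 ki/ki mouse 1, so the count changed from 0 to 1 with 1 mouse. Since the same contrast took part in choosing the members, nothing is read from these counts.

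**Figure D3:**
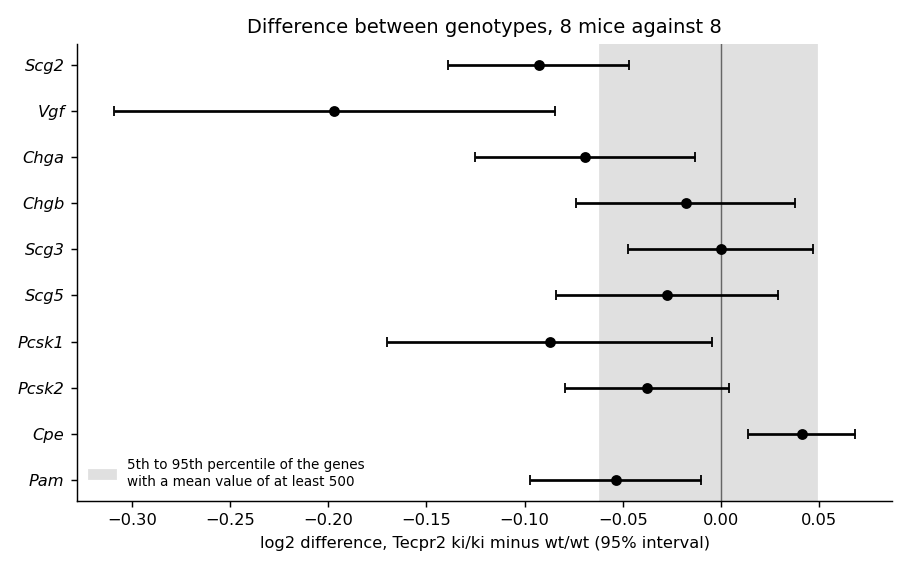
Log2 difference between Tecpr2 ki/ki and wt/wt mice (x axis) with its 95% interval for the 10 genes, 8 mice per genotype, and in grey the range from the 5th to the 95th percentile of the 4892 tested genes with a mean value of at least 500. Vgf lies farthest to the left at −0.20 with the widest interval, Cpe lies to the right of 0, and the point of Scg3 lies on 0.

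The spread between mice of 1 genotype differed widely among the members. It enters the p-values by which the study's lists had taken Scg2, Vgf and Cpe, so it is a description too. Around its genotype mean Vgf varied by 7.69% (SD), more than 98.5% of 1657 tested genes of similar level (within 1.5 times of its mean), whose median was 3.6%. Pcsk1 varied by 7.34%, more than 91.6% of 2933 genes of its level. Both lay well above the spread that counting alone gives at this depth, 2.59% for Vgf and 4.19% for Pcsk1.

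Pam was at the other end, with 1.74%, wider than in 0.865% of 1271 genes of its level and below the 2.27% that counting gives. Cpe varied by 1.86% and Scg2 by 2.64%, at the 16.5 and 19.1 percentile of the genes of their level. The remaining members varied by 3.13% (Pcsk2) to 4.76% (Chgb). With counting error included, the spread was thus smallest in Pam and largest in Vgf and Pcsk1.

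Whether the members rose and fell together from mouse to mouse was tested on the deviations of log2(value + 1) from the genotype mean over the 16 mice. Of the 45 pairs, 27 had a positive Pearson r, the median r was 0.056, and r lay between −0.52 and 0.47. None of the 45 passed an adjusted p under 0.05 in a two-sided permutation test within genotypes, by Pearson's r or by Spearman's rho, and 2 had an unadjusted p under 0.05 by either measure. The chromogranins Chga and Chgb had r = 0.454 (permutation p = 0.0499, adjusted p = 0.77) and rho = 0.694 (permutation p = 0.00424, adjusted p = 0.191), and r was 0.508 without the 2 mice farthest from the median of Chga.

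Scg3 and Pam had the most negative value, r = −0.515 (permutation p = 0.039, adjusted p = 0.77) with rho = −0.562. Scg2 and Vgf, the 2 granins with the lowest log2 differences, had r = 0.0723 (permutation p = 0.775, adjusted p = 0.991) and rho = −0.0868. The convertases Pcsk1 and Pcsk2 had r = −0.482 (permutation p = 0.0731, adjusted p = 0.77), which fell to −0.132 without the 2 mice farthest from the median of Pcsk1.

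Tecpr2 ki/ki mouse 6 had the lowest Scg2, Vgf and Pcsk1 and the highest Scg5 and Pcsk2 of all Tecpr2 ki/ki mice. Its library was of middle depth, with 12.53 megareads. Without it, r of Scg2 and Vgf was −0.121.

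**Figure D4:**
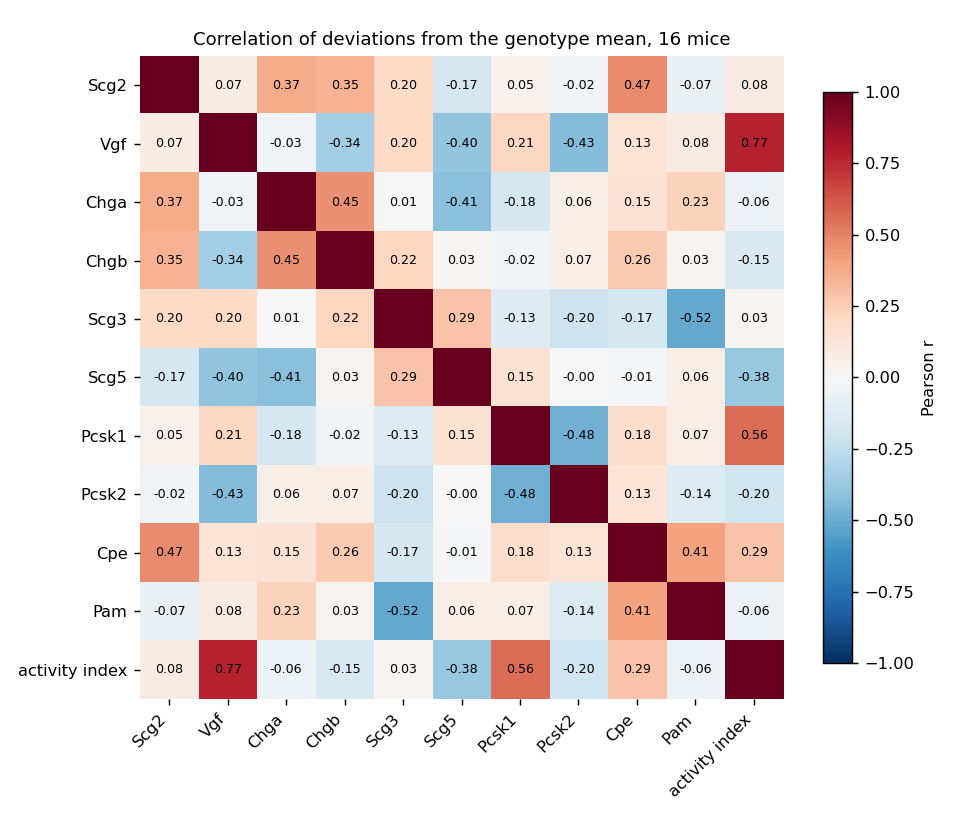
Pearson r (colour and number) between deviations of log2(value + 1) from the genotype mean over the 16 mice, for the 10 genes and for the mean of 25 activity-regulated genes (activity index). Values among the 10 genes lie between −0.52 and 0.47, and the cell of Vgf with the activity index, 0.77, is the highest.

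Scg2, Vgf and Pcsk1 are known as genes that neuronal activity induces. Each member was therefore compared with an activity-regulated index, the mean of log2(value + 1) over 25 genes such as Fos, Arc, Egr1 and Npas4, none of them a member. The index lay between 7.969 and 8.389 in Tecpr2 ki/ki (median 8.299) and between 8.115 and 8.495 in wt/wt mice (median 8.319). Within genotypes Vgf rose with the index, with r = 0.769 (two-sided permutation test, p = 0.0006, adjusted p = 0.006 over 10 members) and rho = 0.697 (permutation p = 0.0045, adjusted p = 0.045). The relation was seen in both genotypes, with r = 0.825 in Tecpr2 ki/ki and r = 0.707 in wt/wt mice (8 mice each). Without the 2 mice farthest from the median of the index r was 0.548, and leaving out any 1 mouse gave r between 0.683 and 0.834.

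The mice with the lowest index in each genotype, Tecpr2 ki/ki mouse 6 and wt/wt mouse 7, were also those with the lowest Vgf, both at −0.182 from their genotype mean on the log2 scale. Tecpr2 ki/ki mouse 1, with the highest index of its genotype, had the highest Vgf, 0.201 above it.

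Pcsk1 had r = 0.556 (permutation p = 0.0335, adjusted p = 0.168) and rho = 0.394 with the index, and did not pass over all 16 mice. Its value rested on single mice, since r was 0.69 without wt/wt mouse 7, when it passed, and 0.334 without Tecpr2 ki/ki mouse 6. Scg2, which carries the full element in its promoter, had r = 0.0845 (permutation p = 0.765, adjusted p = 0.924) and rho near 0. Chgb, which carries it too, had r = −0.151 (permutation p = 0.594, adjusted p = 0.924). The other members lay between −0.376 (Scg5) and 0.287 (Cpe), and none passed. Of the 3 members with the full element none passed with all mice. Vgf, the 1 member that did, had no promoter entry in which to look. Whether the element bears on these correlations was not tested.

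**Figure D5:**
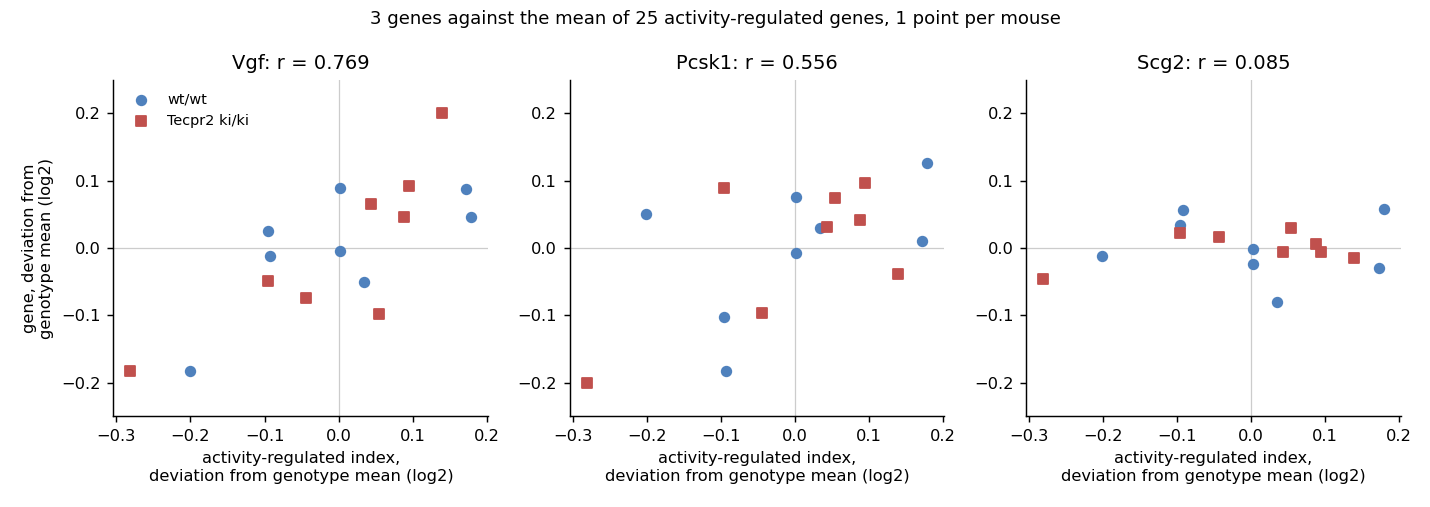
Deviation of Vgf, Pcsk1 and Scg2 from the genotype mean (y axis, log2) against the deviation of the activity-regulated index (x axis, log2), 1 point per mouse, 8 wt/wt (blue circles) and 8 Tecpr2 ki/ki mice (red squares). Vgf rises with the index (r = 0.769), Pcsk1 less so (r = 0.556), and Scg2 stays near its mean over the whole range of the index (r = 0.085).

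Among the 8542 genes with a mean value of at least 200, the 5 whose deviations correlated best with those of Vgf over the 16 mice were Aftph (r = 0.862), Egr3 (0.836), Dnajb1 (0.823), Zbtb11 (0.813) and Egr1 (0.807). Aftph takes part in clathrin-coated vesicle traffic, Egr3 and Egr1 are immediate early transcription factors, and Dnajb1 is a co-chaperone. Egr3 and Egr1 also belong to the index. For Scg2 the 5 were Stip1 (r = 0.873), Ubl7 (0.865), Tdrd7 (0.828), Pebp1 (0.775) and Wdr47 (0.76), of which Stip1 is a co-chaperone of heat shock proteins. These values describe likeness and carry no test. Of the other members, the nearest to Scg2 was Cpe, at rank 509 of 8541 genes, and the nearest to Vgf was Pcsk1, at rank 2184.

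The substrates of the pathway were the next group. Of 44 neuropeptide precursor genes 32 were tested, 25 of them lower and 7 higher by sign in Tecpr2 ki/ki mice. By the same measure 50.5% of all tested genes were lower. The median log2 difference of the precursors was −0.079, against −0.00098 over all tested genes. One of the precursors, Penk, that of enkephalins, passed the adjusted threshold of 0.1 with limma, where 0.0387% of all tested genes were called lower and 0.0946% higher. Penk lay between 1049 and 1149 in Tecpr2 ki/ki (median 1089) and between 1155 and 1308 in wt/wt mice (median 1197.5), without overlap, a log2 difference of −0.15 (SE 0.0286, adjusted p = 0.00219).

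Penk is most abundant in the striatum. Of 10 striatal markers, which include Penk, all 10 were lower by sign, where 50.5% of all tested genes were. The sum of the 10 lay between 8455 and 8817 in Tecpr2 ki/ki and between 8985 and 9478 in wt/wt mice, without overlap, and none was at 0. The part of the share of striatal RNA in the values of Penk or of the members was not tested.

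At an unadjusted p under 0.05 in limma's test there were 5 precursors, all lower, where 3.01% of all tested genes were lower. Beside Penk the precursors were Apln, that of apelin, Sst, that of somatostatin, Cort, that of cortistatin, and Oxt, that of oxytocin. Apln lay between 224 and 297 in Tecpr2 ki/ki (median 273.5) and between 269 and 350 in wt/wt mice (median 307), with a log2 difference of −0.19 (SE 0.0542, adjusted p = 0.225). Sst lay between 417 and 553 (median 473) and between 435 and 585 (median 533.5), with a log2 difference of −0.12 (SE 0.0558, adjusted p = 0.807). Both overlapped between genotypes and did not pass. Of the other precursors, 11 (hypothalamic or peripheral peptides such as those of Ghrh and Ucn3) had a mean value under 5, and Kiss1 was at 0 in all mice.

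Of 19 other processing enzymes tested, among them the ubiquitous convertase gene Furin and the carboxypeptidase gene Cpd, 10 were lower and 9 higher by sign, and 0 passed in limma's test. One had an unadjusted p under 0.05, Cpd, with means of 1581 and 1645. By the size of the difference the first 3 were Slc31a1, a copper transporter gene, at −0.093 (SE 0.0537), Cpm, a carboxypeptidase gene, at −0.085 (SE 0.0742) and Ctsl, a lysosomal protease gene, at 0.072 (SE 0.0394). The median log2 difference of this group was −0.0099. Furin, with medians of 529.5 and 523.5, and Cyb561, which supplies Pam with electrons, with medians of 408 and 413, differed by −0.0099 (SE 0.0413) and −0.024 (SE 0.041).

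Of 37 genes of dense-core vesicle assembly and release, 25 were lower and 12 higher by sign, where 50.5% of all tested genes were lower, with a median of −0.019, and 0 passed in limma's test over all mice. At an unadjusted p under 0.05 there were 4, all lower, where 3.01% of all tested genes were lower. The 4 were Ptprn, Dnajc5, Rph3a and Hid1. Ptprn, which encodes the vesicle membrane protein IA-2, lay between 2907 and 3370 in Tecpr2 ki/ki (median 3069) and between 3165 and 3386 in wt/wt mice (median 3244). Of the Tecpr2 ki/ki mice 5 were below every wt/wt mouse, the log2 difference was −0.084 (SE 0.0236, adjusted p = 0.266), and Ptprn was called lower when Tecpr2 ki/ki mouse 3 was left out. The other 2 with a large difference were Rab27a, a small GTPase gene of vesicle docking, at 0.12 (SE 0.0694) and Syt10, a calcium sensor gene, at −0.082 (SE 0.0778).

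The 3 granin-like genes were lower by sign, and 0 passed in limma's test or had an unadjusted p under 0.05. Pcsk1n, the precursor of the Pcsk1 inhibitor proSAAS, lay between 1124 and 1753 in Tecpr2 ki/ki (median 1550) and between 1217 and 1916 in wt/wt mice (median 1550.5). Its spread of 14.4% and 14.9% (SD relative to the mean, n = 8 each) was wider than that of any member. Gnas, whose locus holds overlapping transcripts including the one for the granin NESP55, differed by −0.023 (SE 0.04) and Resp18 by −0.0032 (SE 0.042).

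Of the 25 activity-regulated genes, 21 were lower by sign, where 50.5% of all tested genes and 60.3% of those with a mean value of at least 500 were, and the median log2 difference was −0.051. In limma's test 0 passed, and 5 were lower at an unadjusted p under 0.05, as were 3.01% of all tested genes. These were Nptx2, Inhba, Nr4a3, Fosl2 and Bdnf. Nptx2, a secreted synaptic pentraxin gene, lay between 224 and 266 in Tecpr2 ki/ki (median 237.5) and between 261 and 285 in wt/wt mice (median 276.5), with 6 of 8 Tecpr2 ki/ki mice below every control and a log2 difference of −0.18 (SE 0.0506, adjusted p = 0.225). Inhba, an activin subunit gene, lay between 115 and 146 (median 129.5) and between 132 and 176 (median 149.5), at −0.23 (SE 0.0698, adjusted p = 0.343). Egr4, a transcription factor gene, differed by −0.19 with a 95% interval from −0.57 to 0.20. The immediate early genes Fos, at −0.14 (SE 0.144), and Egr1, at −0.044 (SE 0.0776), differed by no more than their SE.

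Other cell and region markers gave the surroundings of these values. Of 10 microglia markers 9 were higher by sign, where 50.5% of all tested genes were lower. At the adjusted threshold of 0.1 with limma 3 rose (Ctss, C1qa and Trem2), where 0.0946% of all tested genes did. The sum of the 10 lay between 2682 and 2868 in Tecpr2 ki/ki and between 2370 and 2624 in wt/wt mice. Among oligodendrocyte, choroid plexus and cerebellum markers, 10 each, 0 passed in limma's test and 0, 2 and 1 had an unadjusted p under 0.05. Of 16 hypothalamus markers 11 were tested, 9 of them lower by sign, where 50.5% of all tested genes were. The sum of the 16 lay between 173 and 232 in Tecpr2 ki/ki and between 191 and 268 in wt/wt mice. Of 12 pituitary markers 4 were tested, with sums between 120 and 153 and between 104 and 133. In the hypothalamus list Oxt and in the pituitary list Gata2, a gene also active outside the pituitary, had an unadjusted p under 0.05, and 0 passed in limma's test. The part of regional or cellular composition in the members' values was not tested.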

How the data were processed

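Stranded total RNA libraries of whole brain, 1 per mouse, were prepared after depletion of ribosomal RNA. Per the study's methods and the submitters' processing notes, the authors trimmed reads with Trim Galore 0.6.10 and cutadapt 3.4, aligned them to GRCm39 with STAR 2.7.10b, counted them per gene and tested genes with DESeq2 1.40.2. What the authors deposited was treated as a score, since the linear values had been normalized, by a method not given in the sources used here, and then rounded. The series table matched the file of each mouse (16 of 16 columns). Totals lay between 11964284 and 12252324, so depth was read from the gaps that rounding leaves among low values. Replicate mice limit the precision.

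Groups were taken from the sample labels. The values not being counts, no count test was run. Genotypes were compared with limma 3.58.1 (lmFit, eBayes with trend and robust) in R 4.3.3 on log2(value + 1), which understates differences of low genes, with genotype as the only term, over all 23244 genes with a sum over 16 and a value above 5 in at least 4 mice of a genotype, with Benjamini-Hochberg adjustment. Correlations across mice used deviations from the genotype mean and 100000 resamples within genotypes, with adjustment over 45 pairs or 10 members. Intervals and percentiles were computed in Python 3.11.15 with numpy 2.4.6, pandas 2.3.3 and scipy 1.17.1, and figures were drawn with matplotlib 3.10.9.

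Members and gene lists were chosen with earlier results of these data known. Named in each list were the genes called at an adjusted p under 0.1 and the 3 with a mean value of at least 100 and the largest difference, and for Scg2 and Vgf the 5 genes most alike. The other genes with values, such as Pomc, Furin, Cyb561, Fos and Cpd, were named after their values had been seen. Symbols (52017 of 55404 genes), positions and lengths came from gene names and GENCODE M21 of GRCm38, and promoters from RefSeq of GRCm38.p6. Since the authors aligned to GRCm39, positions here are those of the earlier build. Alternatives were another pseudocount, no filter, a variance prior that was not robust, equal library totals, quantile normalization, a replicate block and leaving out each mouse. One result of a marker list is not reported here.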

Additional observations from a re-analysis of the deposited data

Results flagged for a closer look

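In 66 groups of 8 mice, the members and the named genes in each genotype, the highest and the lowest mouse were set against the other 7 by Dixon's criterion, which flags about 1 in 20 groups by chance, and 4 groups had a mouse that stood far from the others. Chga was 1191 in Tecpr2 ki/ki mouse 3, where the other 7 lay between 1045 and 1109. Scg5 was 1011 in wt/wt mouse 5, where the others lay between 1060 and 1093. Cpe was 11315 in Tecpr2 ki/ki mouse 5, where the others lay between 10781 and 10927. Syt10 was 135 in Tecpr2 ki/ki mouse 1, where the others lay between 94 and 112. The mice and genes differ among the 4, and no mouse was flagged for more than 1 member. Without these mice the log2 differences were −0.087 for Chga, −0.039 for Scg5 and 0.034 for Cpe, with the direction they had with all mice.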

How the results depend on the processing

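Over all genes 31 passed, and 20 when no filter on low values was used. Genes of low value then entered both the variance prior and the adjustment, and the cause of the drop was not tested. Leaving out 1 mouse at a time gave between 25 and 40 genes. The count of dense-core vesicle genes that passed lay between 0 and 1 (Ptprn, without Tecpr2 ki/ki mouse 3), and that of members correlating with the activity-regulated index between 1 and 2 (Pcsk1 in addition, without wt/wt mouse 7). Penk passed in all 22 alternatives (adjusted p between 0.000994 and 0.0152), with log2 differences between −0.165 and −0.139. Of the members, Scg3 changed sign in 11 of 22 alternatives, and the other 9 kept theirs in all 22. Scg2 lay between −0.104 and −0.0843 and Vgf between −0.225 and −0.171 with 1 mouse left out.

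The mice of both genotypes carry numbers 1 to 8. Same-numbered mice had correlations of deviations between −0.0393 and 0.149 over 13765 genes, with 1 of 8 pairs above 0.1. Of the 16 mice, 5 correlated best with their own number. Whether same-numbered mice share more than a number was not tested. With the replicate block 46 genes passed over all genes, and Scg2 and Vgf were among them with unchanged differences of −0.0927 and −0.197. Vgf also passed when the variance prior was not robust. Since Scg2 and Vgf had been selected on this same contrast, nothing is read from these passes. The counts of called precursors, processing enzymes and activity-regulated genes (1, 0 and 0) and of member pairs (0) stayed as they were in every alternative run, and the cell and region marker lists and the granin-like genes were not rerun. The depth of 9.23 to 15.39 megareads limits low genes such as Oxt and Cort.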
